A study of Homo sapiens with 6 samples.

Results

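The genes described here are the human VPS (vacuolar protein sorting) and SNX (sorting nexin) genes. They are every gene whose symbol is VPS or SNX followed by digits and that has a probe set annotated to it alone, with pseudogenes left out. They number 68 genes, 38 VPS and 30 SNX, of 19775 genes on the array, and they are read by 169 of its 54675 probe sets. The symbols define the members, but this gene group was chosen because of its differences between the same 6 arrays in an earlier look at them. The changes given for the members are therefore a description, with no test, and they support nothing by themselves.

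The RNA came from Kasumi-1, an established line of human acute myeloid leukaemia with the t(8;21) translocation, grown in RPMI medium with fetal bovine serum. One group of 3 samples received 20 nM HHT (homoharringtonine, a plant alkaloid that blocks the elongation step of translation) for 24 h, and the other group of 3 samples received vehicle for 24 h. All 6 samples are of this one line, and the labels do not say whether the 3 samples of a group were separate cultures, so the spread between them may be technical. Messenger RNA was measured on one-colour Affymetrix 3′ arrays, and each value is a log2 signal of one probe set, deposited by the authors after scaling each array to a common mean.

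VPS genes were first found in yeast mutants that missort enzymes meant for the vacuole, the yeast lysosome. Their human products form coats, tethers and sorting complexes on endosomes. Retromer and its sorting nexin partners carry receptors back from endosomes to the Golgi or the plasma membrane, HOPS and CORVET tether endosomes and lysosomes before they fuse, ESCRT complexes pull receptors into inner vesicles bound for the lysosome, and GARP and EARP receive returning carriers at the Golgi and at recycling endosomes. Sorting nexins share a PX domain, which binds phosphoinositide lipids, and many also have a BAR domain, which senses or bends membrane.

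Of the 68 members, 62 had a probe set bright enough to be tested, in that its mean over all arrays was outside the dimmest 40%, which ended at a log2 signal of 4.80. The 6 that did not were SNX7, SNX31 and SNX32 and the 3 noncoding genes VPS13A-AS1, VPS13C-DT and VPS9D1-AS1. A gene is given by its probe set with the highest mean, and a gene is said to have risen or fallen where limma's fit of all 32768 tested probe sets called that probe set at an adjusted p under 0.05. By that rule 36 members rose and 7 fell after HHT, and 19 were not called. Among all 13572 genes tested, 29.6% were called higher and 24.2% were called lower. As the members were chosen on this contrast, nothing is read from the difference between these shares.

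The median change of the 62 members was 0.41 on the log2 scale, HHT minus vehicle, beside 0.00 for all genes tested. The 35 tested VPS genes and the 27 tested SNX genes had the same median of 0.41, with 22 higher and 4 lower VPS genes and with 14 higher and 3 lower SNX genes. The 36 increases ran between 0.19 and 2.15 with a median of 0.56, and 28 of them stayed under 1 log2 unit. The upper end is VPS9D1, whose vehicle mean lay below the filter level. The 7 decreases ran between -0.94 and -0.17. The 3 HHT arrays lay above all 3 vehicle arrays for 40 members and below them for 8, and the groups overlapped for 14. The matching counts over all genes tested are not given here, so nothing about the members is read from these numbers. The members were somewhat brighter than the average gene, with a median vehicle signal of 9.91 against 9.01 for all genes tested. Among the 6786 genes above that all-gene median, 35.6% rose and 38.1% fell, while of the 47 members above it 31 rose and 7 fell. In RNA from a whole culture, fewer cells of a kind and less RNA per cell cannot be told apart.

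The arrays themselves differed in ways that move with the treatment. The median log2 signals were 5.77, 5.62 and 5.53 on the HHT arrays and 5.96, 5.86 and 5.82 on the vehicle arrays, and the 18 probe sets for spiked-in hybridisation controls averaged 11.63 to 11.75 on HHT arrays and 11.96 to 12.01 on vehicle arrays. Median scaling, which gives all arrays one median, shifted the median change of all genes to 0.24. Spike-in scaling, which gives them one mean of the hybridisation controls, shifted it to 0.28, and quantile normalization to 0.05. Increases therefore count more genes, and decreases fewer, under the first 2 of these scalings: 45 members higher and 1 lower under median scaling, and 45 higher and 2 lower under spike-in scaling. The share of member calls that were higher was 83.7% as deposited, 97.8% under median scaling and 95.7% under spike-in scaling, and over all genes this share was 55.1%, 74.7% and 76.4% in the same order. Of the 19 members not called as deposited, 9 were called higher under median scaling and 9 under spike-in scaling. All 36 increases were called under both, and 33 of them under quantile normalization. Each decrease of a member is given below with its values under scalings that end its call. Of 7 markers of the line on the array, KIT, MPO, RUNX1T1 and PTPRC were at the 96.7th percentile of vehicle signals or above, CD34 and ANPEP were at the 80.0th and 69.0th, and CD38 was below the filter level. The signals were lower in HHT for KIT (14.22 in HHT, 14.83 in vehicle), MPO (12.63 in HHT, 14.39 in vehicle) and CD34 (8.03 in HHT, 9.20 in vehicle). The markers did not all move this way. PTPRC was higher in HHT (13.20 in HHT, 12.43 in vehicle), RUNX1T1 had 13.20 in HHT and 13.23 in vehicle, and ANPEP had 7.39 in HHT and 7.70 in vehicle. Of 10 markers of other cells on the array, COL3A1, KRT19 and ALB were below the filter level and CD3E, MS4A1, NCAM1, PECAM1 and COL1A1 had vehicle signals between 5.36 and 7.48, whereas CD3D (11.76 in HHT, 11.62 in vehicle) and EPCAM (12.93 in HHT, 13.69 in vehicle) were bright in both groups. The part of these markers in the results was not tested.

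Retromer and its SNX-BAR partners split in both directions: 4 of the 8 tested genes rose, 3 fell and 1 was not called, with a median change of 0.08. The balance depended on the scaling: 4 were higher and 1 lower under median scaling (median 0.32), 5 and 2 under spike-in scaling (median 0.37), and 4 and 2 under quantile normalization (median 0.23). The cargo-binding trimer of retromer holds VPS35, VPS29 and one of the paralogues VPS26A and VPS26B. VPS26B had log2 signals of 8.96, 8.92 and 9.06 on the HHT arrays, against 9.78, 10.01 and 9.97 on the vehicle arrays. Every HHT array lay below every vehicle array, and the decrease of 0.94 (SE 0.0991), a 1.92-fold lower signal, was the largest among the members. VPS26B fell by 0.94 as deposited, and the value was -0.70 under median scaling, -1.04 under quantile normalization and -0.65 under spike-in scaling, called each time. Its second probe set fell by 1.15. VPS26A had 13.65, 13.58 and 13.57 in HHT and 13.39, 13.45 and 13.37 in vehicle, a separated increase of 0.19 (SE 0.0510). Under the 3 other scalings VPS26A was called at 0.43 to 0.51, while its call was lost without the variance trend in the fit. The paralogues thus moved apart: the change of VPS26A exceeded that of VPS26B by 1.13, which median and spike-in scaling leave as it is because they shift a whole array by one amount, and by 1.55 under quantile normalization. The within-array difference of the 2 signals had an SD of 0.0970 over the HHT arrays and 0.116 over the vehicle arrays.

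The promoter of VPS26B, the member with the largest decrease, is shown because it is a GC-rich start region without an E-box, the 6 letters CACGTG discussed with HOPS below. It is given 5′ to 3′ from 250 bases before to 50 bases after the start site in RefSeq's annotation of GRCh38.p14, with no letters in capitals because none matched.
VPS26B, chr11:134224421-134224720, plus strand: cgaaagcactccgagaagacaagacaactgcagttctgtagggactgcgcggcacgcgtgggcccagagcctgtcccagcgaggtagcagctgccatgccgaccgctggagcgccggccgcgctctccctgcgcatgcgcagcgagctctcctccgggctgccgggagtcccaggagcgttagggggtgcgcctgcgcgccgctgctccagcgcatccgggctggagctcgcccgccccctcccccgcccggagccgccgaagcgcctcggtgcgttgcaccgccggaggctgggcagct

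VPS35, the scaffold that holds the trimer together, had 12.47, 12.46 and 12.51 in HHT and 12.69, 12.63 and 12.63 in vehicle. It fell by 0.17 (SE 0.0525), the smallest of the 7 decreases. The sign did not hold: VPS35 was at 0.06 under median scaling, 0.11 under spike-in scaling and -0.05 under quantile normalization, none of them called. The call was also lost without HHT replicate 1 or without HHT replicate 2, each at -0.17. Its 3 other tested probe sets, at 0.21, -0.10 and -0.17, were not called, so no direction can be given for VPS35. VPS29, a small subunit that binds regulators of retromer, had 13.31, 13.33 and 13.32 in HHT and 12.97, 12.86 and 12.91 in vehicle. It rose by 0.41 (SE 0.0515), and its dimmer probe set, at -0.25, was not called. Over the mean of each gene's probe sets neither VPS29 (0.08) nor VPS26A (0.10) was called.

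The SNX-BAR proteins pair one of SNX1 and SNX2 with one of SNX5 and SNX6 to form tubules on endosomes, and in each pair of paralogues one gene stood apart from the other. SNX2 had 12.80, 12.80 and 12.84 in HHT against 12.19, 12.26 and 12.11 in vehicle, and rose by 0.63 (SE 0.0573). SNX1 had 10.74, 10.85 and 10.77 in HHT against 10.91, 10.80 and 10.72 in vehicle. These SNX1 values overlapped and their difference of -0.03 was not called, although SNX1 was called higher at 0.26 under spike-in scaling. SNX6 had 12.77, 12.71 and 12.79 in HHT against 12.29, 12.43 and 12.15 in vehicle, and rose by 0.46 (SE 0.0736). SNX5, its closest relative, had 13.05, 13.10 and 13.18 in HHT against 13.50, 13.58 and 13.61 in vehicle, and fell by 0.46 (SE 0.0563). The SNX6 and SNX5 groups were each fully separated, in opposite directions, and the change of SNX6 exceeded that of SNX5 by 0.92. The difference between SNX2 and SNX1 was 0.65.

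SNX5 was also the gene whose probe sets spread most in size while keeping one direction. All 6 of its tested probe sets were called lower. The 3 brightest fell by 0.44 to 0.46, whereas a probe set with 6.14, 6.53 and 7.24 in HHT against 8.70, 8.60 and 8.65 in vehicle fell by 2.02. Another fell by 1.50, with 7.05, 6.82 and 6.83 in HHT and 8.54, 8.28 and 8.37 in vehicle. The sixth was below 4.80 on all 3 HHT arrays, which makes its decrease a bound of at least 1.85-fold. For the brightest SNX5 probe set the value was -0.22 under median scaling, where it was not called, and it was called at -0.17 under quantile normalization and at -0.18 under spike-in scaling. The files do not say which transcripts the dimmer probe sets read.

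**Figure D1:**
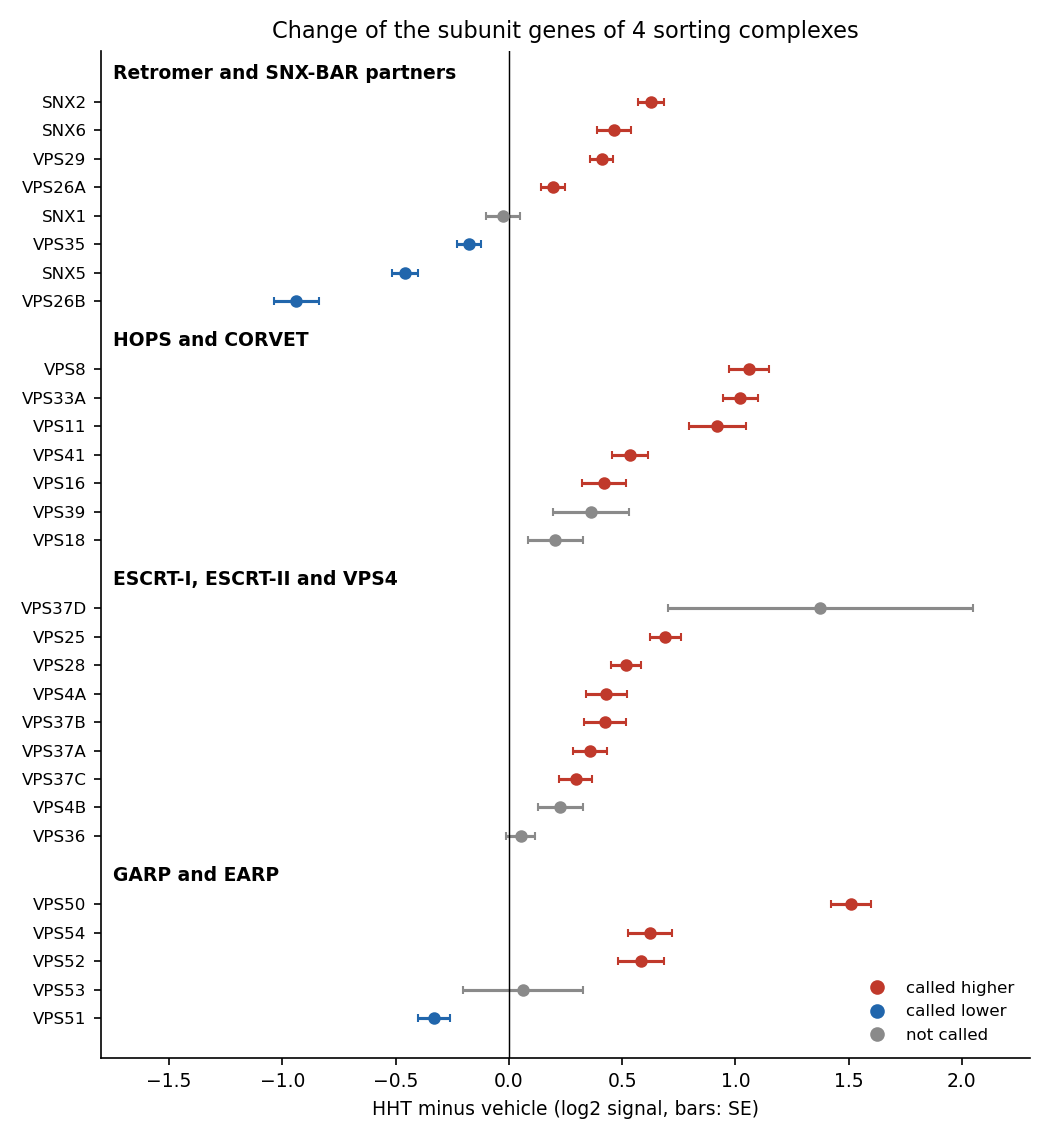
HHT minus vehicle difference in log2 signal (horizontal axis) for the 29 tested subunit genes of the 4 complexes, with 1 row per gene and standard errors as bars. In HOPS and CORVET and in ESCRT all points lie right of 0, while retromer and its partners run between -0.94 for VPS26B and 0.63 for SNX2.

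HOPS and CORVET share 4 core subunits, VPS11, VPS16, VPS18 and VPS33A, and differ in the pair that recognises the membrane, VPS39 and VPS41 in HOPS, VPS8 and TGFBRAP1 in CORVET. Of their 7 VPS genes 5 rose and 0 fell, with a median of 0.54, and all 7 differences were above 0 as deposited and under each of the 3 other scalings. Median scaling and spike-in scaling each called all 7 higher. VPS8 had 11.18, 11.15 and 11.09 in HHT against 10.19, 9.90 and 10.15 in vehicle, a 2.08-fold higher signal. VPS33A, the subunit that binds SNARE fusion proteins, had 11.01, 10.83 and 10.96 in HHT against 9.90, 9.86 and 9.96 in vehicle, a 2.03-fold higher signal. For both genes the groups were about 1 log2 unit apart, with SDs between 0.0483 and 0.158 within a group. VPS11, a scaffold of the core, had 10.36, 10.62 and 10.35 in HHT against 9.25, 9.70 and 9.62 in vehicle and rose by 0.92 (SE 0.125).

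The other core and HOPS subunits moved less. VPS41 had 10.62, 10.62 and 10.71 in HHT against 10.05, 10.22 and 10.07 in vehicle and rose by 0.54 (SE 0.0790). VPS16, which anchors VPS33A in the complex, had 10.02, 9.88 and 9.91 in HHT against 9.65, 9.51 and 9.39 in vehicle and rose by 0.42 (SE 0.0952). VPS39 (7.98, 7.84 and 7.83 in HHT, 7.79, 7.42 and 7.35 in vehicle) was at 0.36 and VPS18 (9.09, 8.96 and 8.87 in HHT, 8.91, 8.58 and 8.81 in vehicle) at 0.21, and neither was called. VPS39 was separated by a narrow gap, and was called at 0.50 without vehicle replicate 1, while VPS18 overlapped. The dimmer probe sets qualify 3 of these genes. VPS33A had 2 that were not called, one at -0.02 and one at 1.55. VPS8 had one at 7.30, 7.17 and 6.98 in HHT and 7.59, 7.96 and 7.79 in vehicle that fell by 0.63, against the direction of its brightest, and another at 1.24 that was not called. VPS41 had one that rose by 0.91 and one at -0.29 that was not called. VPS33B, the paralogue of VPS33A that works in the separate CHEVI complex with VIPAS39, rose by 0.41 (SE 0.0734), which was 0.61 less than VPS33A.

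RefSeq promoters of GRCh38.p14 were matched to 51 of the 68 members by gene identifier. They were searched for the E-box CACGTG, which reads the same on both strands and is known as a binding sequence of MYC with MAX and of the TFEB family, whose members regulate lysosomal genes. It was present in 6 of the 51 members (11.8%), beside 9.98% of the 10922 matched promoters of tested genes and 7.43% of all 27305 promoters in the table. The members with it were VPS11, VPS16, VPS8, VPS50, VPS37B and SNX8, of which the first 5 rose and SNX8 was not called. That is 5 of the 24 matched members that rose (20.8%), 0 of the 7 that fell and 1 of the 16 not called (6.25%). The share was not computed for all genes that rose or fell, and a link of the E-box with the changes was not tested. The longer CLEAR element of lysosomal genes was in 0 of 51, and the cyclic AMP response element TGACGTCA was in 2 of 51 (SNX5 and VPS37B, 3.92%). A match describes the letters and does not show that a factor binds. The 3 HOPS and CORVET promoters with an E-box are shown with it in capitals. The matched promoter of VPS41, a HOPS gene that also rose, has no E-box. VPS11 has 2 copies, beginning 56 and 34 bases before the start site, VPS16 has 1 that begins 66 bases before it, and VPS8 has 1 that begins 17 bases after it.
VPS11, chr11:119067568-119067867, plus strand: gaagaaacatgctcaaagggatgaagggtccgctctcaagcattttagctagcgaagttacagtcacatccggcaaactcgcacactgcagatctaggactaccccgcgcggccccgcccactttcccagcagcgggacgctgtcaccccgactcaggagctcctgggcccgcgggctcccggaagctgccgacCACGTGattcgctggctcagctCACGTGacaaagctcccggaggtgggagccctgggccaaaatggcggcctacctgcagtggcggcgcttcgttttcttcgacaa
VPS16, chr20:2840495-2840794, plus strand: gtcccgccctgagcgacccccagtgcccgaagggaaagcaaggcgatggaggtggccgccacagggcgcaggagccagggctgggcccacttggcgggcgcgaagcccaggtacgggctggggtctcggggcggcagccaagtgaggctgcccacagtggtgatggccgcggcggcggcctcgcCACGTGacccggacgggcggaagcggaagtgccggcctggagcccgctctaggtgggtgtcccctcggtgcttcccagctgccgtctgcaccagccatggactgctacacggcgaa
VPS8, chr3:184811916-184812215, plus strand: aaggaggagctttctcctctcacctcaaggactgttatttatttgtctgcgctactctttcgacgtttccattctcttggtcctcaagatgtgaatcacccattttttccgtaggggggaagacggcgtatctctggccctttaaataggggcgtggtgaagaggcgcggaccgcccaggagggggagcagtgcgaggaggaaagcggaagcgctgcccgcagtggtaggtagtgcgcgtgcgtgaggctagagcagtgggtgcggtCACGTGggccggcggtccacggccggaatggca

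The ESCRT genes with VPS symbols belong to ESCRT-I (VPS28 and VPS37A to VPS37D), ESCRT-II (VPS25 and VPS36) and the ATPase that takes the finished polymer apart (VPS4A and VPS4B). Of these 9 genes 6 rose and 0 fell, with a median of 0.42, and all 9 were above 0 under each of the 4 scalings. VPS25, which links ESCRT-II to the next complex, had 11.98, 12.07 and 12.06 in HHT against 11.28, 11.46 and 11.30 in vehicle, a separated increase of 0.69 (SE 0.0690). VPS28, a stable core subunit of ESCRT-I, had 11.91, 11.78 and 11.96 in HHT against 11.35, 11.34 and 11.41 in vehicle and rose by 0.52 (SE 0.0675). The interchangeable subunits VPS37A, VPS37B and VPS37C rose by 0.36, 0.42 and 0.29, a dimmer VPS37A probe set rose by 1.25, and the mean of the VPS37C probe sets was not called at 0.12. VPS37D was dim and unsteady, at 6.76, 6.21 and 6.36 in HHT and 5.91, 6.07 and 3.20 in vehicle. Its difference of 1.38 had an SE of 0.673, was not called and was 0.45 without vehicle replicate 3, although it was called at 1.61 under median scaling.

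VPS4A had 10.36, 10.53 and 10.57 in HHT against 10.17, 9.93 and 10.07 in vehicle and rose by 0.43 (SE 0.0911). Its paralogue VPS4B, at 12.38, 12.22 and 12.11 in HHT against 11.85, 12.21 and 11.97 in vehicle, overlapped between the groups and was not called at 0.23, but was called under all 3 other scalings, at 0.47 under median scaling, 0.27 under quantile normalization and 0.51 under spike-in scaling, and at 0.33 without vehicle replicate 2. The difference between the 2 ATPase genes, 0.20, was smaller than its spread between arrays (SD 0.240 in HHT and 0.304 in vehicle), so their changes could not be separated. VPS36, the lipid-binding subunit of ESCRT-II, was at 0.05 and not called as deposited, and was called at 0.29 under median scaling and at 0.34 under spike-in scaling. The ESCRT-I, ESCRT-II and VPS4 genes that were called lay between 0.29 and 0.69, a narrower range than in the other 3 complexes.

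**Figure D2:**
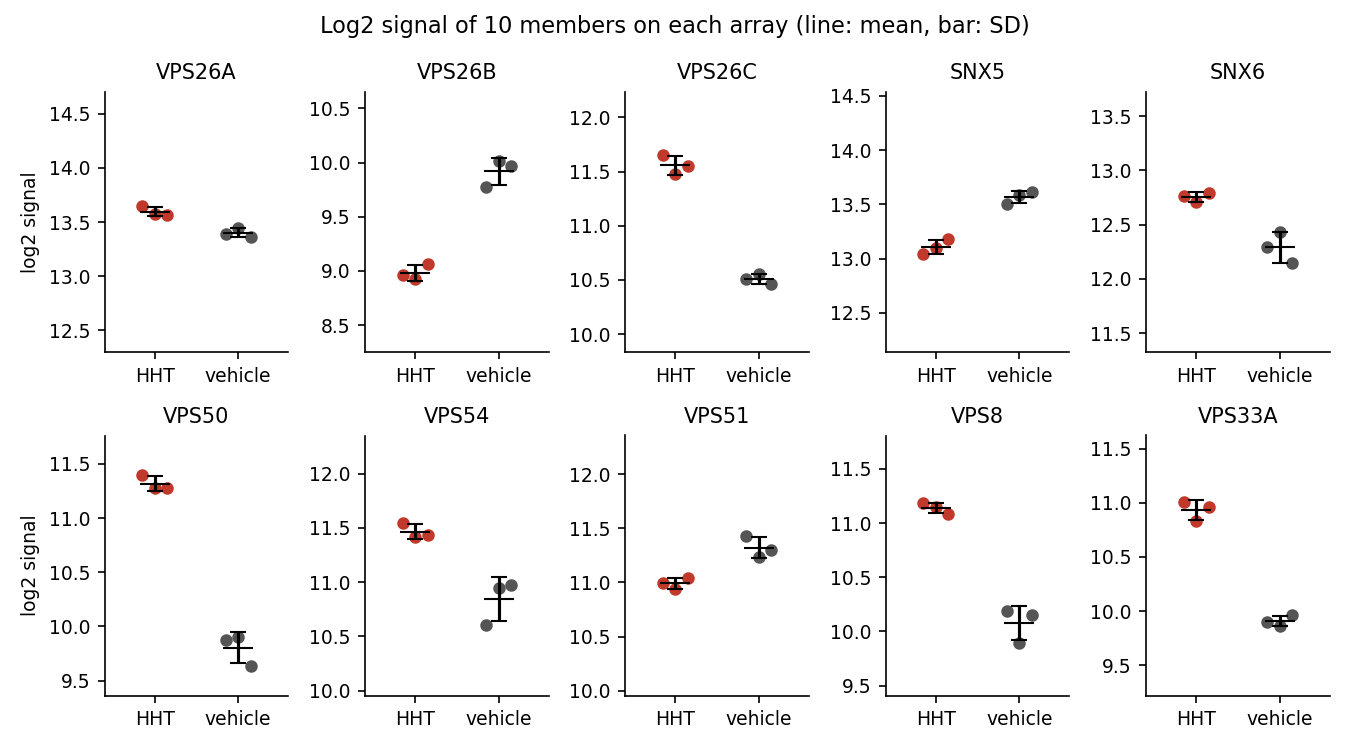
Log2 signal (vertical axis) of 10 members on each of the 3 HHT arrays, left, and the 3 vehicle arrays, right, each panel spanning the same number of log2 units, with the mean as a line and the SD as a bar. VPS26A rose by 0.19 beside a fall of VPS26B by 0.94, SNX6 and SNX5 moved 0.46 in opposite directions, and VPS50 shows the widest gap, 1.51.

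GARP and EARP are sister tethers that share VPS51, VPS52 and VPS53. VPS54 makes the complex GARP, at the Golgi, and VPS50 makes it EARP, at recycling endosomes. Of the 5 genes 3 rose, 1 fell and 1 was not called, with a median of 0.58. VPS50 had 11.40, 11.28 and 11.27 in HHT against 9.88, 9.90 and 9.64 in vehicle. The lowest HHT array lay more than 1 log2 unit above the highest vehicle array, and the increase of 1.51 (SE 0.0886), a 2.85-fold higher signal, was the largest in the 4 complexes among the called genes. A second VPS50 probe set, with 7.93, 7.93 and 7.76 in HHT against 6.04, 6.15 and 6.20 in vehicle, rose by 1.74, another rose by 0.83, and the dimmest, at 0.34, was not called.

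VPS54 had 11.55, 11.41 and 11.44 in HHT against 10.61, 10.95 and 10.97 in vehicle, and rose by 0.62 (SE 0.0984). Its 2 other probe sets rose by 0.79 and 0.70. The brightest VPS54 probe set is of a kind that can cross-hybridise with other transcripts, as is that of VPS35. The increase of the EARP subunit VPS50 exceeded that of the GARP subunit VPS54 by 0.89, with an SD of 0.0137 over the HHT arrays and 0.303 over the vehicle arrays. Of the shared subunits, VPS52 had 10.13, 10.17 and 10.22 in HHT against 9.77, 9.59 and 9.41 in vehicle and rose by 0.58 (SE 0.101). VPS51 had 11.00, 10.94 and 11.04 in HHT against 11.43, 11.24 and 11.30 in vehicle and fell by 0.33 (SE 0.0720). The VPS51 groups were separated as deposited, but the value was -0.09 under median scaling and -0.05 under spike-in scaling, not called under either. VPS53 (7.63, 8.00 and 7.68 in HHT, 7.19, 7.58 and 8.36 in vehicle) overlapped and was not called at 0.06, and 1 of its 6 tested probe sets fell by 0.76.

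The promoter of VPS50, the complex gene with the largest called increase, holds 1 E-box, in capitals, beginning 3 bases before the start site.
VPS50, chr7:93232116-93232415, plus strand: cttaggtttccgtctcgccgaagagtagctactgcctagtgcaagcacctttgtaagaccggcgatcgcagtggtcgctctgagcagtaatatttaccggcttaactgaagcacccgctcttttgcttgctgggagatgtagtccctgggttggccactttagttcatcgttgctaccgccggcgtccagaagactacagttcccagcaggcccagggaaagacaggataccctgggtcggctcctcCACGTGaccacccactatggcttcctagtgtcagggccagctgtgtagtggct

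Outside the 4 complexes 33 members were tested, of which 18 rose, 3 fell and 12 were not called, with a median of 0.41. Retriever is the relative of retromer that recycles integrins with the adaptor SNX17. Its VPS26C had 11.65, 11.47 and 11.55 in HHT against 10.51, 10.55 and 10.46 in vehicle, with the groups about 1 log2 unit apart. It rose by 1.05 (SE 0.0711), and its other probe set rose by 0.54. VPS26C thus differed from VPS26B by 1.99, the widest gap among the paralogues compared. SNX17 rose by 0.26, but the call was lost under quantile normalization (0.16), without HHT replicate 3 (0.22) and without vehicle replicate 2 (0.23), and VPS35L, the retriever counterpart of VPS35, was dim and not called at -0.02 (SE 0.542).

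Of the 3 retromer adaptors without a BAR domain 2 fell and 1 was not called. SNX3, which brings retromer to early endosomes through its PX domain, had 13.14, 13.25 and 13.12 in HHT against 13.78, 13.58 and 13.51 in vehicle and fell by 0.46 (SE 0.0734). All 4 of its probe sets were called lower, but all 4 are of the kind that can cross-hybridise, and SNX3 was not called under any of the 3 other scalings, at -0.22 under median scaling, -0.16 under quantile normalization and -0.17 under spike-in scaling. SNX12, its close paralogue, had 9.38, 9.67 and 9.41 in HHT against 9.89, 9.73 and 9.81 in vehicle and fell by 0.32 (SE 0.104), with a value of -0.08 under median scaling and -0.04 under spike-in scaling, not called under either. The SNX12 call was lost in 4 of the 6 fits that left out 1 array (without HHT replicate 1 or 3, or vehicle replicate 1 or 3), at -0.32 to -0.27. SNX27, which recycles receptors through its PDZ domain, was at 0.22 and not called as deposited, although its HHT arrays lay above its vehicle arrays. It was called higher at 0.46 under median scaling and at 0.50 under spike-in scaling, and was not called at 0.11 under quantile normalization.

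VPS45, which regulates SNARE proteins of endosomes, had 11.01, 10.97 and 10.96 in HHT against 9.90, 9.78 and 9.85 in vehicle. The 3 arrays of each group lay close together and more than 1 log2 unit from the other group, and VPS45 rose by 1.14 (SE 0.0728), although its dim second probe set was at -0.80 and not called, and the mean over the 2 probe sets, at 0.17, was not called. VPS9D1 had the highest fitted change of all members, 2.15 (SE 0.495), from 7.07, 6.83 and 6.47 in HHT and 4.03, 5.77 and 4.12 in vehicle. Its vehicle mean of 4.64 lay below the filter level, so the signal is given as at least 3.18-fold higher, with each vehicle array set to at least 4.80. The rank of VPS9D1 was not kept with an offset of 64 on the antilog scale. There it was at 0.93, below VPS50 at 1.45 and VPS45 at 1.08. VPS72, which carries the symbol but encodes the YL1 subunit of chromatin-remodelling complexes, was at 0.18 and not called.

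The VPS13 genes encode long bridge-like proteins that transfer lipids between membranes. VPS13D had 9.59, 9.63 and 9.61 in HHT against 8.50, 8.79 and 8.51 in vehicle and rose by 1.01 (SE 0.110). The 4 paralogues did not move together: VPS13B rose by 0.27, VPS13A was not called at -0.12, and VPS13C fell by 0.24. The VPS13B call was lost under quantile normalization (0.18) and in 5 of the 6 fits that left out 1 array, with values of 0.20 to 0.28, and was kept only without vehicle replicate 1. For VPS13A another probe set, with 9.58, 9.19 and 9.21 in HHT against 9.98, 10.01 and 10.08 in vehicle, fell by 0.69. VPS13A was called lower at -0.22 under quantile normalization and at -0.27 over the mean of its probe sets, but was at 0.12 under median scaling and 0.16 under spike-in scaling, not called. VPS13C had 12.39, 12.34 and 12.25 in HHT against 12.45, 12.64 and 12.60 in vehicle, groups that were separated by a small gap. Its value was 0.00 under median scaling, 0.05 under spike-in scaling and -0.14 under quantile normalization, none called, so its direction was not kept, and its call was lost without HHT replicate 3 or without vehicle replicate 2, each at -0.20. The change of VPS13D exceeded that of VPS13A by 1.14.

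**Figure D3:**
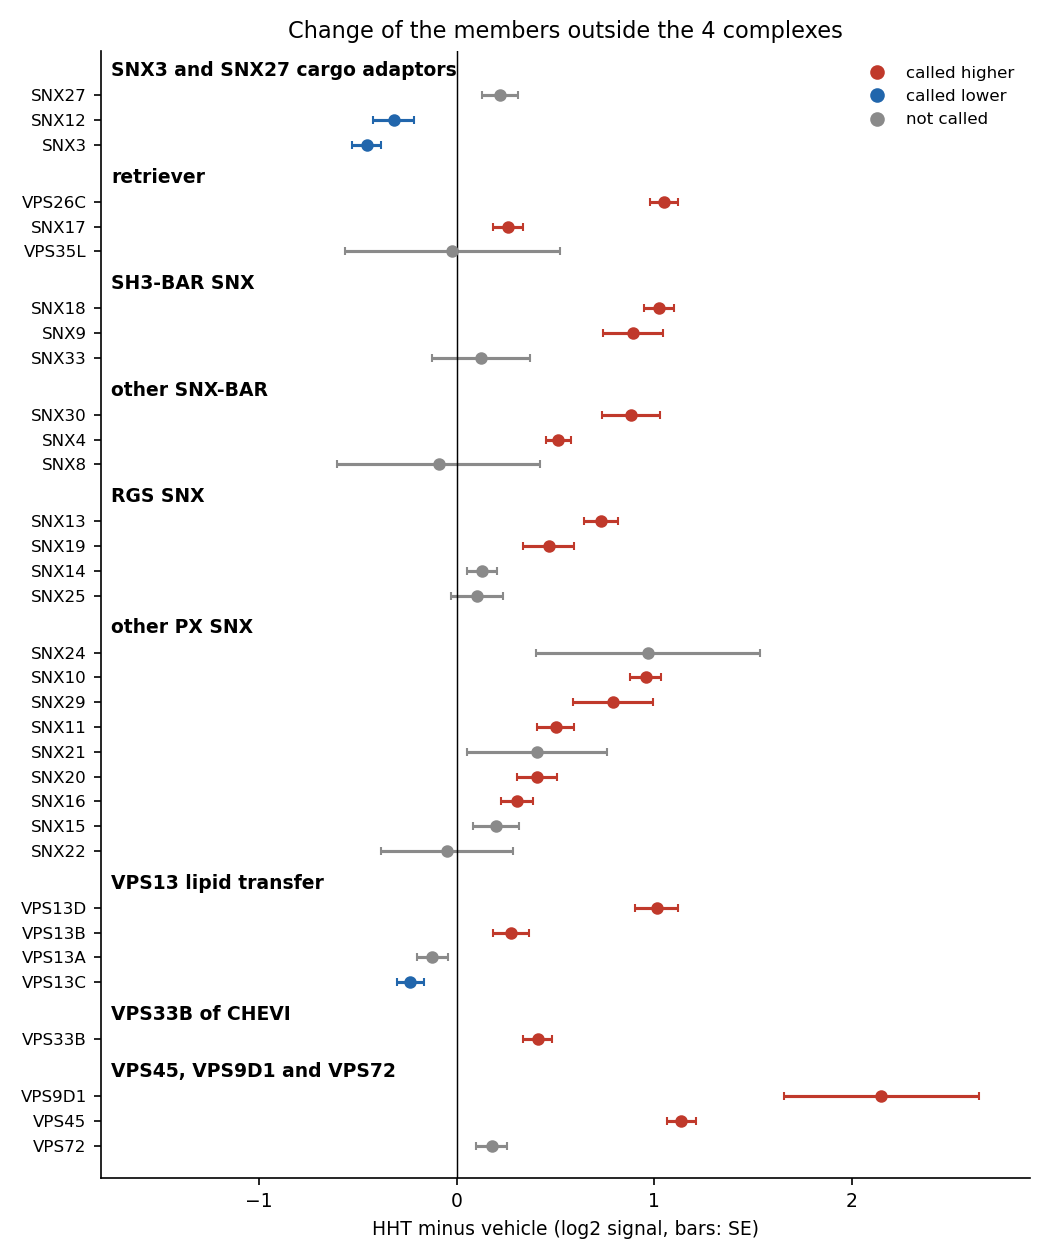
HHT minus vehicle difference in log2 signal (horizontal axis) for the 33 tested members outside the 4 complexes, by family, with standard errors as bars. VPS9D1 at 2.15 and VPS45 at 1.14 lie farthest right, and SNX3 at -0.46 lies farthest left. The vehicle mean of VPS9D1 was below the filter level.

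Among the SH3-BAR sorting nexins, which act with dynamin in endocytosis and in the making of autophagosomes, SNX18 had 11.02, 10.91 and 10.87 in HHT against 9.95, 9.89 and 9.88 in vehicle. The groups did not overlap, and SNX18 rose by 1.02 (SE 0.0747). SNX9 rose by 0.89 (SE 0.151), while the dim SNX33 was not called at 0.12. Of the other SNX-BAR genes SNX30 rose by 0.88, SNX4 rose by 0.51 (0.00 over the mean of its probe sets, not called) and SNX8 was not called at -0.09. SNX4, which recycles receptors and SNAREs, had a second probe set at 10.23, 10.48 and 10.72 in HHT and 10.92, 11.00 and 11.02 in vehicle that fell by 0.50. With VPS8 it was 1 of 2 genes with probe sets called in both directions.

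Of the sorting nexins with an RGS domain or a related architecture, several of which sit at contacts of the endoplasmic reticulum with other organelles, SNX13 rose by 0.73 and SNX19 by 0.47. Only 1 of the 5 tested SNX13 probe sets was called, the others lay between -0.17 and 0.30, and their mean was not called at 0.17. The SNX19 call was lost without HHT replicate 2, at 0.37. The genes SNX14 and SNX25 were not called at 0.13 and 0.10. SNX10, which interacts with the proton pump of lysosomes and is needed by osteoclasts, had 10.99, 11.13 and 11.07 in HHT against 10.02, 10.08 and 10.21 in vehicle. It rose by 0.96 (SE 0.0791) with separated groups. SNX20, which binds the leukocyte selectin ligand PSGL-1, rose by 0.41, and SNX29, SNX11 and SNX16 rose by 0.79, 0.50 and 0.30. The SNX16 call was lost under quantile normalization (0.19), and that of SNX20 over the mean of its probe sets (0.36). The remaining 4 of this class, SNX24, SNX21, SNX15 and SNX22, were not called, and the 3 other than SNX24 lay between -0.05 and 0.41.

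The other probe sets of a gene read the same RNA on the same arrays, so they describe its call and cannot check it independently. Of the 138 tested probe sets of the members 55 were called higher and 20 lower. A second tested probe set existed for 30 of the 43 called genes, and 18 of these had at least 1 other probe set with the same call. SNX5, SNX3 and VPS54 were among those whose tested probe sets were all called the same way. VPS8 and SNX4 had probe sets called in both directions. The matching shares over all tested probe sets are not given here, so nothing is read from these counts.

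**Figure D4:**
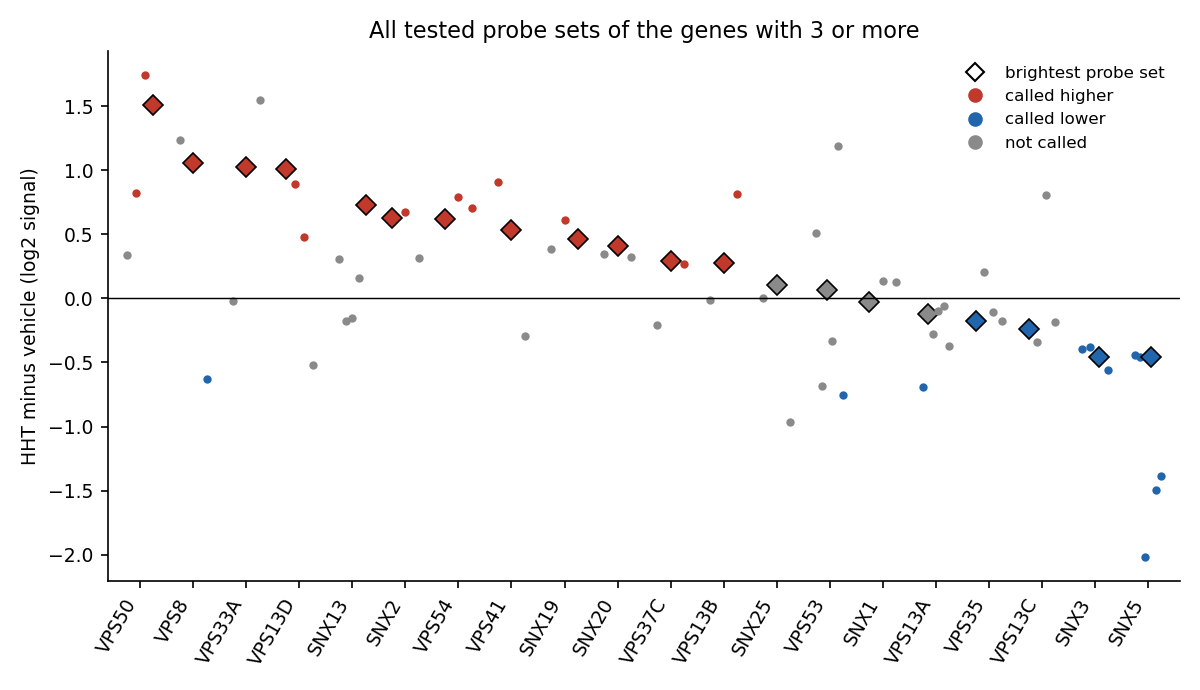
HHT minus vehicle difference in log2 signal (vertical axis) of every tested probe set of the members with at least 3, by gene, with a diamond for the brightest probe set, which represents the gene. All 6 points of SNX5 lie below 0, down to -2.02, while VPS8 has points called in both directions.

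Several members have start sites within 200 kb of each other, and whether other genes lie between them was not checked. By RefSeq's start sites in GRCh38.p14, SNX2 and SNX24 begin 70.6 kb apart on chromosome 5 and SNX1 and SNX22 begin 55.7 kb apart on chromosome 15, each pair on the plus strand. SNX2 rose by 0.63. SNX24 had 5.97, 5.27 and 5.64 in HHT against 4.05, 5.75 and 4.18 in vehicle, with 2 vehicle arrays below the filter level. The SNX24 groups overlapped and the difference of 0.97 (SE 0.568) was not called, so no bound is given for this probe set. Its other tested probe set, dimmer still, was called higher, at least 2.26-fold. Neither SNX1 nor SNX22 was called as deposited. SNX15 and VPS51 begin 68.8 kb apart on chromosome 11, and SNX15 was not called at 0.20 while VPS51 fell by 0.33. The noncoding VPS13C-DT begins 0.056 kb from VPS13C and was too dim to test.

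Genes that work with the members but carry other names were counted from lists that were also written with earlier results in view. Their medians also moved with the scaling: under median scaling those of the ESCRT, WASH, commander, tethering and phosphoinositide lists were 0.57, 0.52, 0.69, 0.53 and 0.58, and under spike-in scaling 0.62, 0.57, 0.74, 0.57 and 0.63. Of the tethering partners 2 were lower under median scaling and 1 under spike-in scaling. The counts that follow are as deposited. The genes given with an adjusted p-value, here and for the cargo receptors below, were picked by their values in this contrast. Their p-values therefore describe the fit and support nothing by themselves. Of 18 tested ESCRT partners 11 rose and 2 fell, with a median of 0.34. TSG101, the ESCRT-I subunit that binds ubiquitin, had 12.52, 12.44 and 12.52 in HHT against 10.90, 10.92 and 10.93 in vehicle and rose by 1.58 (SE 0.0587, limma adjusted p = 3.33e-08). STAM2, an ESCRT-0 subunit, rose by 1.59 (SE 0.116, limma adjusted p = 1.57e-06), while HGS, which pairs with it in ESCRT-0, fell by 0.63 (SE 0.0953, limma adjusted p = 0.000293). The groups of TSG101, STAM2 and HGS were each separated.

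Of 7 tested genes of the WASH complex and other retromer partners 5 rose and 1 fell, with a median of 0.28, led by WASHC3 at 1.34 and ANKRD50 at 0.82. WASHC3 is a subunit of the WASH complex, which builds actin on endosomes. Of 12 commander genes, the COMMD and CCDC proteins that join retriever, 8 rose and 1 fell, with a median of 0.45, led by COMMD3 at 1.18 and COMMD2 at 0.67. Of 16 tethering partners 10 rose and 4 fell, with a median of 0.29. VAMP4, a SNARE of the Golgi and endosomes, rose by 1.05. TGFBRAP1, the CORVET partner of VPS8, had 8.69, 8.75 and 8.53 in HHT against 9.68, 9.76 and 9.60 in vehicle and fell by 1.02 (SE 0.104, limma adjusted p = 1.58e-05). By their brightest probe sets the 2 CORVET-specific subunits thus moved in opposite directions, but a dimmer VPS8 probe set also fell, by 0.63. The last of these lists holds enzymes that make or turn over endosomal phosphoinositides, the lipids that PX domains bind, and subunits of their complexes. Of these 10 genes 7 rose and 0 fell, with a median of 0.35. They were led by the phosphatase FIG4 at 1.41 and by ATG14, a subunit of the VPS34 kinase complex, at 1.13.

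The receptors that these machines carry were also listed. All 7 tested cargo receptors fell, with a median of -0.88. ITGB1, the integrin beta-1 subunit recycled by retriever, had 13.11, 13.15 and 13.14 in HHT against 14.07, 13.98 and 13.99 in vehicle and fell by 0.88 (SE 0.0495, limma adjusted p = 3.13e-07). SLC2A1, the glucose transporter recycled by SNX27 with retromer, had 7.61, 7.10 and 7.05 in HHT against 8.57, 8.81 and 8.58 in vehicle and fell by 1.40 (SE 0.179, limma adjusted p = 8.31e-05). The groups were fully separated for both genes. LRP1, an endocytic receptor of the LDL receptor family, with 5.25, 4.50 and 5.12 in HHT and 5.83, 6.18 and 6.40 in vehicle, fell by 1.18, with 1 HHT array below the filter level. SORL1, a sorting receptor of the Golgi and endosomes, fell by 1.05. The mannose 6-phosphate receptors M6PR and IGF2R, which bring enzymes to lysosomes, fell by 0.59 and 0.47, and TFRC, the transferrin receptor, fell by 0.53. The number called lower was 4 under median scaling, 4 under spike-in scaling and 6 under quantile normalization, and all 7 values were below 0 under each. SORT1 and WLS, listed with them, were not analysed here.

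**Figure D5:**
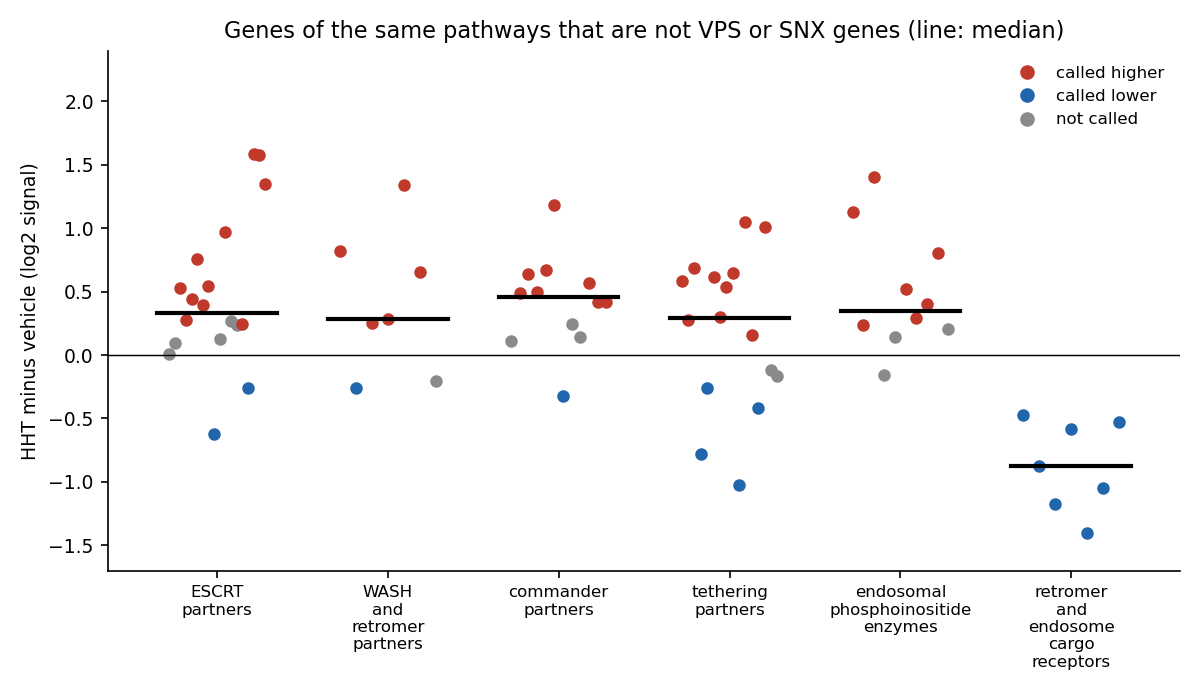
HHT minus vehicle difference in log2 signal (vertical axis) of the tested genes in 6 lists of partners that are not VPS or SNX genes, with 1 point per gene and the list's median as a line. The 7 cargo receptors all lie below 0, with a median of -0.88, and the other 5 medians lie between 0.28 and 0.45.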

How the data were processed

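RNA of 3 HHT and 3 vehicle samples was measured on 1 array each. A 3′ in vitro transcription kit amplified the RNA and added biotin, per the labels' protocols. The authors deposited 1 log2 signal per probe set. The submitters' processing notes name MAS5 but no version of it. After trimming 2% at each end, the mean antilog signal was 500.1 on every array. No counts or detection calls were used, and precision is limited by having 3 arrays per group.

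The members and the gene lists were chosen with earlier results of these data known. The text names all members of the 4 complexes, the 6 largest called increases and decreases of the others (only 3 fell) and the 2 largest called changes per partner list. Further genes were named after their values were seen. Gene names came from the platform annotation, with symbols updated from RefSeq genes of GRCh38.p14, where 41091 had 1 gene, 1801 several and 11721 none. Of probe sets matching the symbol rule, 2 of pseudogenes and 4 shared by several genes were left out. The 62 control probe sets and the dimmest 40% of the rest were left out, and limma 3.58.1 (R 4.3.3) compared the groups in a two-sided test, by lmFit and by eBayes with a variance trend, with Benjamini-Hochberg adjustment over 32768 probe sets. The fit was tested on simulated data. P-values measure only the spread between these samples. SD is over the 3 arrays of a group. SE is limma's standard error of the difference between the groups, from both groups together and with the variance moderated by eBayes. The replicate numbers were not used to pair samples. Alternatives were median scaling, spike-in scaling to the 18 hybridisation control probe sets, quantile normalization, other filters, no variance trend, a replicate block, averaging the probe sets of a gene, an offset of 64 on the antilog scale and leaving out each array. Motifs and distances were computed in Python 3.11.15.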

Additional observations from a re-analysis of the deposited data

How the results depend on the processing

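Across 15 alternative settings, 515 of the 568 values of the 38 members named by the rule kept their direction and their side of the threshold. Of the rest, 28 kept the direction but lost the call, 12 gained a call and 13 changed sign. The number of members called higher stayed between 30 (mean of each gene's probe sets) and 45 (median or spike-in scaling), and was 34 to 37 when 1 array was left out. The number called lower was 7 as deposited, 1 under median scaling, 2 under spike-in scaling, 4 without the variance trend and 5 to 6 when 1 array was left out. The fit with a replicate block gave 36 members higher and 7 lower, the same counts as without it, and the same-numbered arrays did not deviate together (correlations of 0.0655, -0.0141 and 0.0491). The median change of the members was 0.65 under median scaling, 0.33 under quantile normalization, 0.69 under spike-in scaling, 0.36 for the mean of probe sets, 0.37 with the offset and 0.37 to 0.42 when 1 array was left out. Signs changed for SNX1 (0.21 under median scaling, 0.26 under spike-in scaling, 0.0793 for the mean of probe sets, and -0.0731 to 0.0232 when 1 array was left out), for VPS35 (0.0641 under median scaling, 0.11 under spike-in scaling), for VPS13C (0.0035 under median scaling, 0.0484 under spike-in scaling, 0.0099 for the mean of probe sets) and for VPS53 (-0.0022 for the mean of probe sets, and -0.20 to 0.39 when 1 array was left out). A single scaling step moves all genes of an array together, which shifts each of these small values, and for the other settings the cause was not tested. SNX12 was called in 2 of the 6 fits that left out 1 array. The standard errors were 0.673 for VPS37D, 0.568 for SNX24, 0.542 for VPS35L and 0.515 for SNX8, and smaller for every other tested member.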
